A study of Mus musculus with 12 samples.

Results

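Dot1l and 9 genes for its partners in transcription elongation, namely Mllt10, Mllt6, Mllt1, Mllt3, Aff1, Aff4, Ell2, Ell3 and Kmt2a, were examined across all 12 libraries of a comparison of mouse stem cells, 10 genes of the 55401 counted. They were chosen by name, as the inhibited enzyme and the proteins known to work with it, and were found by gene identifier, with the version removed, in the GENCODE M21 annotation. RNA enriched with oligo(dT) beads was sequenced from 3 lines of totipotent potential stem (TPS) cells and 3 lines of extended pluripotent stem (EPS) cells, with 2 technical replicates per line. By the labels, TPS cells grew on feeder cells in VCED medium and EPS cells grew on feeder cells in LCDM medium, and neither group carries a named genetic change. The labels do not spell out either medium. The study's methods give the medium of TPS cells as holding VPA, a histone deacetylase inhibitor, a GSK3 inhibitor, EPZ004777, a DOT1L inhibitor, and CD1530, a retinoic acid receptor agonist, and the feeders as inactivated mouse embryonic fibroblasts. The sources used here do not say from which cells each TPS line was made, or whether lines of 1 group came from separate embryos, so p-values measure the spread between these lines. By those methods TPS cells were kept with an inhibitor of the enzyme that Dot1l encodes, and the inhibitor cannot be told apart from the other components of the medium in these data.

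DOT1L is the methyltransferase that places methyl groups on H3K79, a mark found over the bodies of transcribed genes. AF10 (Mllt10) and AF17 (Mllt6) bind DOT1L in the DotCom complex, and ENL (Mllt1) and AF9 (Mllt3) read acylated histones through a YEATS domain and bind either DOT1L or the AF4 family scaffolds. AF4 (Aff1) and AFF4 (Aff4) assemble the super elongation complex, in which ELL proteins (Ell2 and Ell3 here) and the kinase P-TEFb release paused RNA polymerase II. KMT2A (MLL1) methylates H3K4, and its fusions with several of these partners drive leukaemia through DOT1L.

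The windows before the starts of Dot1l, Aff1 and Aff4 are shown because Dot1l encodes the inhibited enzyme, Aff1 was the 1 gene of the 10 that differed by the test, and Aff4 is the scaffold paralog of Aff1 that did not. Each is the 250 bases before a start in RefSeq on GRCm38.p6, all on the plus strand, at chr10:80754953-80755202 for Dot1l, chr5:103753912-103754161 for Aff1 and chr11:53350517-53350766 for Aff4. No base of the 3 windows lies in a GENCODE exon, and that of Aff1 lies within the longer gene that GENCODE draws from base 103692374. Capitals mark a GC box, searched as GGGCGG and, for the other strand, CCGCCC, where overlapping matches were both counted.
Dot1l: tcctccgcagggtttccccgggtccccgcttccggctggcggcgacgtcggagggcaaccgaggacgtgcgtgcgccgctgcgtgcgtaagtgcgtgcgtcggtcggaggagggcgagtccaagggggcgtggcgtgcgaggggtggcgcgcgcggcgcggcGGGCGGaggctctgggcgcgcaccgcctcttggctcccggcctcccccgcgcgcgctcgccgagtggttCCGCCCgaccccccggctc
Aff1: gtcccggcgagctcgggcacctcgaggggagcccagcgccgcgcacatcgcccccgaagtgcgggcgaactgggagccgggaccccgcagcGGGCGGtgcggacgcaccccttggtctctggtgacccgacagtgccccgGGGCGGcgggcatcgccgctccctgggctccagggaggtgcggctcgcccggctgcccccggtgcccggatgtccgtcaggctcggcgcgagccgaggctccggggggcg
Aff4: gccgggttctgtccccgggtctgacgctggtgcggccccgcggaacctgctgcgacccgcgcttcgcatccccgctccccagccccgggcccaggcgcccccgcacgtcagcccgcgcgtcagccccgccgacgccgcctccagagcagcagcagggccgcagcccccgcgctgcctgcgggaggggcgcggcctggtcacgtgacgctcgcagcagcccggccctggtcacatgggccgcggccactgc
The Dot1l window and this Aff1 window held 2 GC boxes each and the Aff4 window held 0, and a second RefSeq start of Aff1 has a window, at chr5:103754323-103754572 and not shown, with 3. All 3 windows shown were rich in G and C (78.4%, 78.8% and 79.2%). They held 44, 35 and 34 CpG, against a median of 6 over all 32851 windows of the same length. RefSeq gave 14 windows for the 10 genes. Of these, 10 held a GC box, for 9 of the 10 genes, and 32.7% of all windows did.

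Total counts ran from 13676051 to 21821707 per library and from 29877215 to 38466294 per line. The TPS lines stood apart from the EPS lines in markers of the labelled cell types. All 8 genes of the 2-cell stage list were higher in TPS lines, with a summed level of 263 to 356 CPM (read counts relative to the library total, itself scaled by TMM) against 0.0854 to 0.163 in EPS lines, where none of the 8 passed the count filter, so that each was tested through the TPS lines alone, and all 8 markers of pluripotent stem cells were expressed in both groups, 5 of them lower in TPS lines. Fibroblast markers were present in every line. Their summed level was 3674 to 6874 CPM in TPS lines and 361 to 1532 CPM in EPS lines, 9 of 16 were higher in TPS lines by the test, all 16 fold changes were above 0, and Fap alone was at 0 in a line (EPS line 1). In bulk RNA, fewer cells of a type and less RNA per cell cannot be told apart.

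Of the 10 genes, 9 passed the filter on low counts and were tested, and Ell3 did not. By edgeR's quasi-likelihood test with Benjamini-Hochberg adjustment over all 17468 tested genes (the test behind each adjusted p given here unless another is named, at a threshold of 0.05), Aff1 was lower in TPS lines, 0 genes were higher and 8 did not pass. At an unadjusted p under 0.05, edgeR gave 1 higher and 2 lower, DESeq2 called 0 higher and 2 lower, and limma-voom 0 higher and 1 lower. Over all genes DESeq2 called 3118 higher and 1914 lower, and limma-voom 2429 and 1245. No count over all genes is given at an unadjusted p, here or for the lists below, so those counts have no share to be read against. By the edgeR test with adjustment, 21.7% of all tested genes passed, 14.4% higher and 7.34% lower in TPS lines. With both directions together, 1 of 9 was not above the share of the whole table. For lower calls alone 1 of 9 was above 7.34%, a count that rests on 1 gene. The median log2 fold change of the 9 genes, TPS minus EPS, was 0.04, and that of all tested genes was -0.00. Lines of the 2 groups did not overlap for 4 of the 9 genes, against 42.7% of all tested genes. Where the 12 libraries were taken as separate samples, 2 of the 9 were called higher and 2 lower, in a fit that called 49.5% of its genes. Of the genes with no overlap of lines, Mllt1 and Mllt3 had every TPS line above every EPS line, and Aff1 and Mllt10 had every TPS line below.

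**Figure D1:**
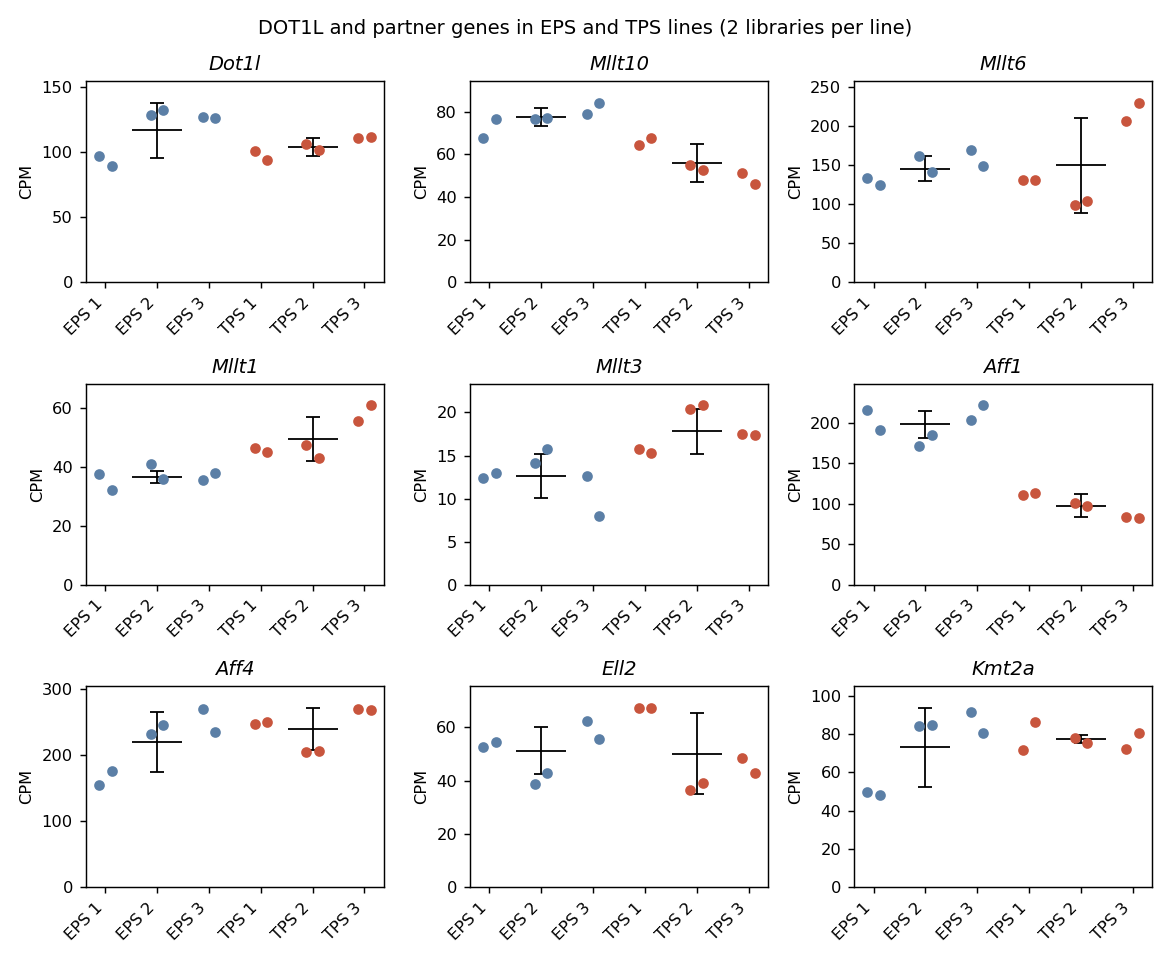
Level of each tested gene in CPM (vertical axes, from 0) in the 3 EPS lines (blue) and 3 TPS lines (red), with 1 point per library, 2 libraries per line, and a black bar for the mean and SD of the 3 lines of a group. The TPS libraries of Aff1 lie between 82.9 and 113 CPM and its EPS libraries between 171 and 222 CPM, while the groups overlap for Dot1l.

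Dot1l, the gene of the methyltransferase itself (chromosome 10, 80755206 to 80795461, plus strand), was expressed in every library. It stood at 96.8, 104 and 111 CPM in TPS lines 1, 2 and 3, and at 92.6, 132 and 126 CPM in EPS lines 1, 2 and 3. EPS line 1 was the lowest of the 6 lines and EPS lines 2 and 3 were the highest, so the groups overlapped. The log2 fold change was -0.17 (SE 0.161, 95% interval -0.54 to 0.20, adjusted p = 0.482). The interval covers changes from a fall of 0.54 to a rise of 0.20 on the log2 scale, and no difference in Dot1l RNA was detectable between TPS and EPS lines. The log2 fold change was -0.34 without EPS line 1 (edgeR adjusted p = 0.119), -0.10 without EPS line 2 (adjusted p = 0.731) and -0.03 with library size alone (adjusted p = 0.930), where the median of all tested genes shifted by 0.14. Libraries of the same line lay close together, with the largest gap in EPS line 1 (97.0 and 89.1 CPM).

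Of the direct DOT1L cofactors, neither AF10 nor AF17 passed the edgeR test. Mllt10 (AF10) stood at 66.0, 53.6 and 48.5 CPM in TPS lines and at 73.2, 77.6 and 81.7 CPM in EPS lines. All 3 TPS lines were below the lowest EPS line. The log2 fold change was -0.47 (SE 0.151, 95% interval -0.82 to -0.12), and the adjusted p of 0.0627 missed the threshold in edgeR. DESeq2, the tool named in the study's methods, called Mllt10 lower (log2 fold change -0.47, adjusted p = 0.0415), as did edgeR without TPS line 1 (-0.60, adjusted p = 0.0451). In edgeR Mllt10 was not called with any other line left out (adjusted p 0.0757 to 0.183), library size alone (0.183) or the line number as a block (0.115). Mllt10 shares 749 exonic bases with Dnajc1 on the other strand, and whether the counting used strand is not given in the sources used here. Mllt6 (AF17) stood at 130, 102 and 218 CPM in TPS lines and at 128, 151 and 158 CPM in EPS lines. TPS line 3 was the highest of all lines and TPS line 2 the lowest, 2.14-fold apart, which was the widest spread among TPS lines of the 9 tested genes. Its log2 fold change was 0.04 (SE 0.268, 95% interval -0.58 to 0.66, adjusted p = 0.928). Without TPS line 3 that of Mllt6 was -0.33 and that of Mllt10 was -0.38. As a share of the AF10 and AF17 pair, per kb of exon, Mllt10 made up 39.0%, 39.9% and 21.9% in TPS lines 1, 2 and 3 and 41.9%, 39.3% and 39.5% in EPS lines, so TPS line 3 alone stood apart.

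The YEATS domain readers ENL and AF9 both had fold changes above 0 that did not pass the test. Mllt1 (ENL) stood at 45.4, 44.9 and 58.0 CPM in TPS lines and at 34.5, 38.4 and 36.8 CPM in EPS lines. Every TPS line was above every EPS line, and TPS line 3 was the highest. The log2 fold change was 0.43 (SE 0.154, 95% interval 0.08 to 0.79, adjusted p = 0.0821). Mllt3 (AF9) stood at 15.4, 20.6 and 17.4 CPM in TPS lines and at 12.8, 15.2 and 10.1 CPM in EPS lines, where TPS line 1 lay only just above EPS line 2. Its log2 fold change was 0.49 (SE 0.224, 95% interval -0.03 to 1.01, adjusted p = 0.154). The libraries of EPS line 3 gave 12.7 and 7.98 CPM for Mllt3, the largest gap between technical replicates among the 9 tested genes. Over genes in general the 2 libraries of EPS line 3 also differed most. Their chi-square per degree of freedom was 24.3, against 10.4 in EPS line 1 and 2.68 to 4.06 in the other lines. ENL was the main reader RNA in both groups. Per kb of exon, Mllt1 made up 89.3% ± 2.13 of the pair in TPS lines and 89.9% ± 1.70 in EPS lines (SD, n = 3), and the log2 ratio of Mllt1 to Mllt3 differed by -0.08 between groups (exact permutation test over the 6 lines, two-sided p = 0.8).

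The 2 scaffold genes of the super elongation complex differed in what they showed. Aff1 (AF4; chromosome 5, 103692374 to 103855322, plus strand), the gene whose window with 2 GC boxes is printed above, stood at 112, 98.4 and 83.1 CPM in TPS lines and at 202, 180 and 213 CPM in EPS lines. Neither the lines nor the single libraries overlapped. Aff1 was 2.03-fold lower in TPS lines (log2 fold change -1.02, SE 0.150, 95% interval -1.37 to -0.67, adjusted p = 0.00523). The call was kept in all 17 alternative fits, between -1.13 and -0.87, with the largest adjusted p, 0.0213, in the fit with line number as a block. Cell type markers moved as well, with a median log2 fold change of -0.94 for pluripotent stem cell markers and 2.07 for fibroblast markers. Their part in the levels of Aff1, or of Wdr5 and Kmt2b below, was not tested. Aff4 (AFF4) stood at 247, 204 and 267 CPM in TPS lines and at 167, 240 and 250 CPM in EPS lines. EPS line 1 was the lowest line and the other EPS lines lay among the TPS lines. Its log2 fold change was 0.13 (SE 0.187, 95% interval -0.31 to 0.56, adjusted p = 0.664), and -0.06 without EPS line 1.

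Within the AF4 family, Aff1 made up less of the scaffold RNA in every TPS line than in any EPS line. Aff1 made up 37.2%, 37.9% and 28.4% of the family's level per kb in TPS lines 1, 2 and 3, and 62.1%, 50.4% and 53.4% in EPS lines 1, 2 and 3. Aff4 was the larger share in every TPS line (59.1% ± 4.52, SD, n = 3) and, by annotated exon length, the smaller in every EPS line (42.6% ± 5.74). By the length of the longest transcript the ratio of Aff1 to Aff4 was 0.907 in EPS line 2 in place of 1.06, so that Aff4 was the larger there too, while the ratio stayed above 1 in the other EPS lines and at or under 0.584 in TPS lines. The log2 ratio of Aff1 to Aff4 was 1.17 lower in TPS lines (-0.79 ± 0.341 against 0.38 ± 0.357), with no overlap of lines. An exact permutation test over 3 against 3 lines cannot give a p under 0.1, and this ratio gave p = 0.1, adjusted to 0.167 over the 5 ratios compared. Aff3, a minor scaffold of the family, was the exception, with 10.5, 8.14 and 14.3 CPM in TPS lines against 3.79, 4.09 and 6.06 CPM in EPS lines. It rose by 1.24 on the log2 scale (SE 0.316, adjusted p = 0.0302), a call kept in 2 of the 6 fits that leave out a line. The share of Aff3 in the family was 5.46% in TPS lines and 1.82% in EPS lines. Aff2 stayed at or under 4.25 CPM in every line and was listed at 0 in EPS line 1. The sum of the 4 scaffold genes per kb was 30.1 ± 2.32 CPM in TPS lines and 38.1 ± 3.89 CPM in EPS lines (SD, n = 3).

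**Figure D2:**
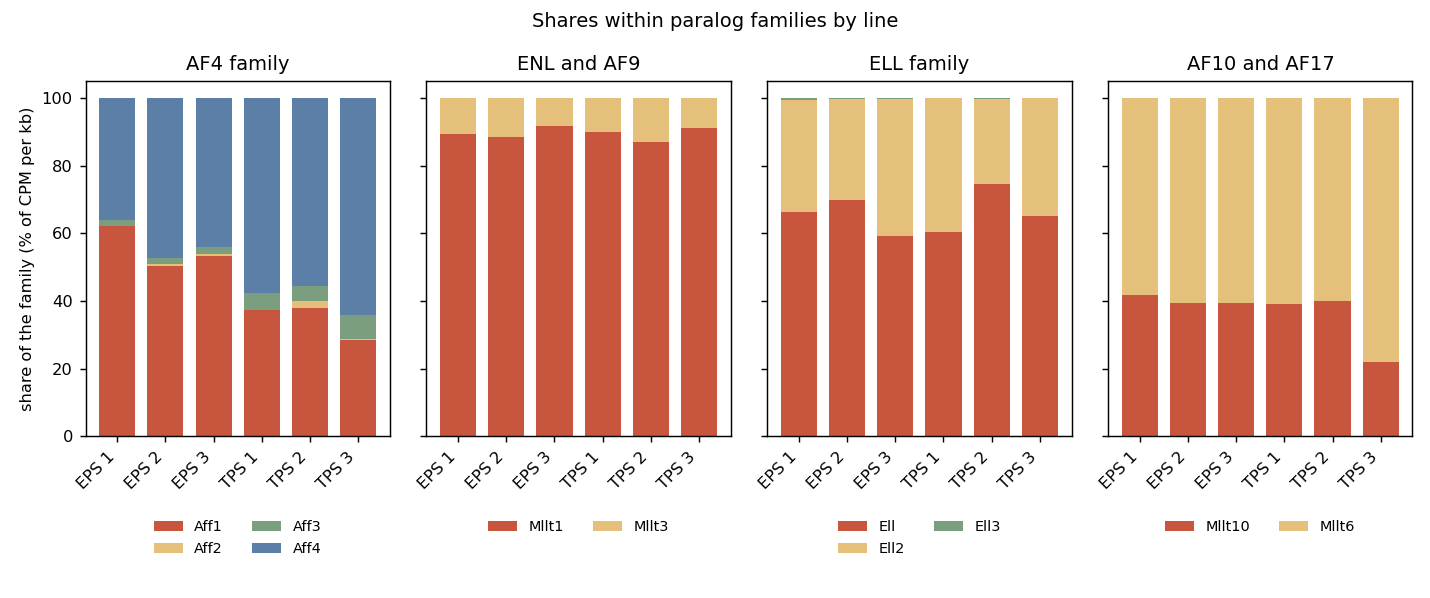
Share of each paralog in the summed CPM per kb of exon of its family (vertical axis, percent) in each EPS and TPS line, for the AF4 family, ENL and AF9, the ELL family, and AF10 and AF17. Aff1 makes up 28.4% to 37.9% of the AF4 family in TPS lines and 50.4% to 62.1% in EPS lines, while Mllt1 makes up 87.0% to 91.8% of its pair in all 6 lines.

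Among the elongation factors that the scaffolds hold, Ell2 stood at 67.0, 37.9 and 45.6 CPM in TPS lines and at 53.9, 41.4 and 58.4 CPM in EPS lines. TPS line 1 was the highest and TPS line 2 the lowest of the 6, so the EPS lines lay inside the TPS range. The log2 fold change was -0.03 (SE 0.238, 95% interval -0.58 to 0.52, adjusted p = 0.939). Ell2 made up 33.2% ± 7.30 of the ELL family per kb of exon in TPS lines and 34.5% ± 5.51 in EPS lines (SD, n = 3). By that length Ell, which was no member of the 10, was the main paralog. By the length of the longest transcript the means of Ell2 and Ell lay close together. They were 9.78 and 10.3 CPM per kb in TPS lines and 9.99 and 9.96 CPM per kb in EPS lines. The log2 ratio of Ell2 to Ell differed by -0.10 (exact permutation test, two-sided p = 0.9).

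Ell3 was at the edge of detection. Its counts were 0, 0, 1, 2, 0 and 0 in the TPS libraries and 1, 4, 2, 2, 1 and 3 in the EPS libraries, 16 in all, and too few for the filter. Libraries with 1 or 2 counts occurred in both groups. Ell3 shares 1436 of its 2190 exonic bases with Serinc4 on the same strand. Serinc4 was the single gene that met the search rule for near-identical copies of any of the 10 genes. It is an overlapping gene at this locus and not a separate copy, and it was listed at 0 counts in all 12 libraries. How reads on shared bases were assigned is not given in the sources used here, so the Ell3 level is uncertain.

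Kmt2a (MLL1; chromosome 9, 44803355 to 44881296, minus strand) had the narrowest spread among TPS lines, at 79.7, 76.2 and 76.2 CPM, and stood at 49.2, 85.1 and 85.2 CPM in EPS lines. EPS line 1 was the lowest line and the other EPS lines were above all TPS lines. The log2 fold change was 0.08 (SE 0.215, 95% interval -0.42 to 0.58, adjusted p = 0.818), and -0.16 without EPS line 1. EPS line 1 was the lowest EPS line for 6 of the 9 tested genes, against 34.8% of all tested genes. Relative to the mean of EPS lines 2 and 3 it stood at 0.578 for Kmt2a, 0.683 for Aff4 and 0.719 for Dot1l, while the median of all tested genes was 0.995. EPS line 1 was also the line with the lowest summed fibroblast markers (361 CPM), whose part in these levels was not tested.

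**Figure D3:**
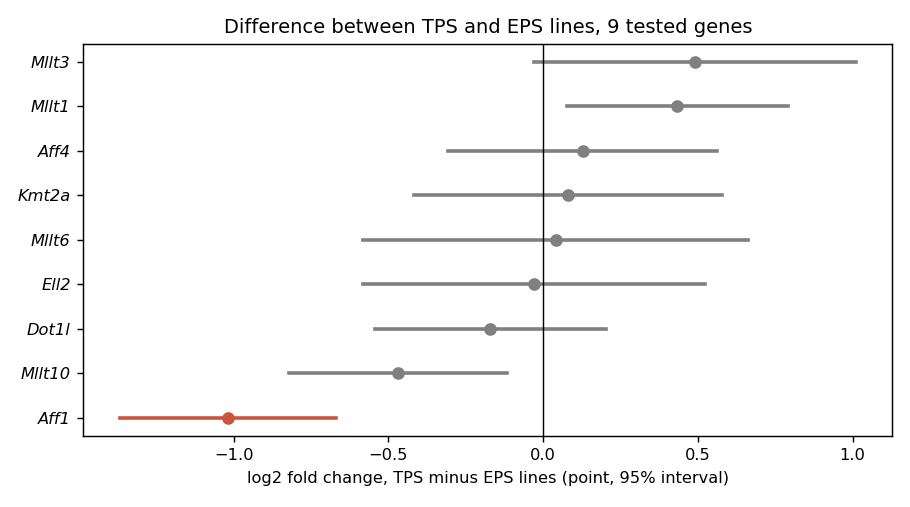
Log2 fold change, TPS minus EPS lines (horizontal axis), of the 9 tested genes, with a point for the estimate and a line for its 95% interval. Aff1 (red), from -1.37 to -0.67, is the single gene with an adjusted p under 0.05, and the intervals of Mllt10 and Mllt1 also lie to 1 side of 0 without passing after adjustment.

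Levels were compared between genes as CPM per kb of annotated exon. In TPS lines the order was Mllt6 (20.1), Aff4 (17.8), Mllt1 (12.6), Dot1l (11.9), Aff1 (10.3), Mllt10 (9.49), Ell2 (5.10), Kmt2a (4.64), Mllt3 (1.48) and Ell3 (0.0118). In EPS lines it was Aff1 (20.9), Mllt6 (19.6), Aff4 (16.3), Dot1l (13.4), Mllt10 (13.1), Mllt1 (9.34), Ell2 (5.21), Kmt2a (4.39), Mllt3 (1.06) and Ell3 (0.0601). Dot1l took rank 4 in both groups, and Aff1 took rank 1 in EPS lines and rank 5 in TPS lines. Neighbours in this order often did not differ beyond their spread. In TPS lines the ranges of Mllt6 and Aff4 overlapped, as did those of Mllt1, Dot1l, Aff1 and Mllt10 in turn and of Ell2 and Kmt2a, and in EPS lines each neighbour from Aff1 down to Mllt10 overlapped the next, as did Ell2 and Kmt2a. By the longest transcript, Aff4 took rank 1, Mllt6 rank 2, Dot1l rank 3 and Mllt1 rank 4 in TPS lines, and Aff4 took rank 2 and Mllt6 rank 3 in EPS lines. By that length the means of Ell2 and Kmt2a lay further apart. They were 9.78 and 4.70 CPM per kb in TPS lines and 9.99 and 4.44 CPM per kb in EPS lines. Ranges of lines were compared by annotated exon length only.

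Across the 12 libraries, on log2(CPM + 1), the genes whose pattern was most like that of Dot1l were 2610037D02Rik (r = 0.969), Tia1 (r = 0.967) and Setd1a (r = 0.959). All 3 were lowest among EPS lines in EPS line 1, as Dot1l was, with Setd1a at 27.4 CPM there against 42.5 and 41.1 CPM in EPS lines 2 and 3. These 3 genes were picked for varying like Dot1l over the same libraries, so their low EPS line 1 is no separate result. Among those most like Aff1 were Lrrc34 (r = 0.982) and Actl6a (r = 0.978), both lower in TPS lines, Lrrc34 by 2.64 on the log2 scale. Both were picked for varying like Aff1 over the same libraries, so their direction is no separate result. Among the 9 tested genes, Mllt10 and Aff1 varied most alike (r = 0.911), followed by Aff4 and Kmt2a (r = 0.826), while Mllt1 and Aff1 were the most opposed (r = -0.890). These are Pearson correlations over libraries that share lines, group and sequencing, and they are given as a description.

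The wider machinery around the 10 genes was read from 8 lists of complex and pathway genes, all 64 of them tested, and a list of target genes is described after them. The test called 3 of the 64 higher (4.69%) and 10 lower (15.6%) in TPS lines, against 14.4% and 7.34% of all tested genes, and their log2 fold changes had a median of -0.10. Leaving out 1 line lowered these counts, to 1 higher and 3 lower without TPS line 1, 2 and 2 without TPS line 2, 0 and 2 without TPS line 3, 0 and 4 without EPS line 1, 0 and 3 without EPS line 2, and 2 and 6 without EPS line 3. The counts were 3 and 3 with library size alone, 3 and 5 with upper quartile factors, and 2 and 2 with the line number as a block. Counts over all tested genes moved as well, from 2509 higher and 1282 lower in the main fit. They were 2987 and 745, 2688 and 1015, and 1714 and 721 in the same order, and 1617 to 2234 higher and 493 to 1047 lower with a line left out. Among 8 further subunits of DotCom and the super elongation complex, Aff3 was higher (above) and Ccnt2, a cyclin of P-TEFb, was lower (-0.47, SE 0.141, adjusted p = 0.0498), with a median of 0.10. With a line left out, Aff3 was called in 2 of 6 fits and Ccnt2 in 1, and Ccnt2 was called in 5 of all 17 alternative fits. Cdk9, the kinase of P-TEFb, stood at 118, 128 and 126 CPM in TPS lines and at 119, 121 and 116 CPM in EPS lines (log2 fold change 0.07, 95% interval -0.19 to 0.32). In the reservoir and recruitment genes of P-TEFb, 1 of 5 was lower, Hexim2, an inhibitor of the kinase (-1.18, SE 0.304, adjusted p = 0.0317; called in 1 of the 6 fits that leave out a line), and the median was -0.11.

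Upstream of DOT1L, ubiquitination of H2B stimulates H3K79 methylation, and the PAF1 complex promotes that ubiquitination. In edgeR, 0 of the 5 genes of the H2B ubiquitination enzymes passed (median -0.02), 1 had an unadjusted p under 0.05, and DESeq2 and limma-voom called 0. Rnf40, an E3 ligase subunit, had every TPS line below every EPS line (-0.33, SE 0.120, adjusted p = 0.0878). Of 6 PAF1 complex genes, Ctr9 was higher in TPS lines, at 101, 105 and 105 CPM against 67.2, 61.2 and 76.1 CPM (log2 fold change 0.60, SE 0.128, adjusted p = 0.0165), and the other 5 did not pass (list median -0.12). Ctr9 was called in 3 of the 6 fits that leave out a line, and not without TPS line 3, EPS line 1 or EPS line 2. Of 10 general elongation and pausing factors, Nelfe, a subunit of the pausing factor NELF, was lower (-0.52, SE 0.149, adjusted p = 0.0442), with a list median of -0.23. It was called in 0 of the 6 fits that leave out a line and in 6 of all 17 alternative fits. Of the other YEATS genes, Yeats2 (0.34, adjusted p = 0.142) and Yeats4 (-0.18, adjusted p = 0.393), 0 passed in edgeR, DESeq2 or limma-voom, and 0 had an unadjusted p under 0.05 in edgeR.

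Around Kmt2a, 4 of 12 genes of the H3K4 methyltransferase complexes were lower in TPS lines and 0 were higher, against 7.34% lower and 14.4% higher of all tested genes, with a median of -0.23. The 4 fell to 2 with library size alone, with upper quartile factors, with a CPM of at least 1 in 3 lines, in technical replicate 1 alone, with the line number as a block and in 5 of the 6 fits that leave out a line (3 without EPS line 2). DESeq2 called 4 lower and 0 higher, limma-voom 3 and 0, and at an unadjusted p under 0.05 edgeR gave 4 and 0. Wdr5, a subunit common to these complexes, stood at 220, 231 and 212 CPM in TPS lines and at 499, 382 and 418 CPM in EPS lines (log2 fold change -0.97, SE 0.140, adjusted p = 0.00489). The others were Kmt2b, a methyltransferase related to Kmt2a (-0.66, adjusted p = 0.0133), Rbbp5 (-0.43, adjusted p = 0.0442) and Dpy30 (-0.57, adjusted p = 0.0461), both of the last also common subunits. Wdr5 and Kmt2b were called in all 6 fits that leave out a line and with the line number as a block. Dpy30 was called in 1 of those 6 fits and Rbbp5 in 0, and neither with the block. Among 16 other histone lysine methyltransferases, Nsd2 was higher (0.46, adjusted p = 0.0349), and Ezh2 (-0.51, adjusted p = 0.0253), Ezh1 (-0.59, adjusted p = 0.0409) and Kmt5c (-0.57, adjusted p = 0.0358) were lower, with a list median of -0.12. These calls were weak, since with a line left out Nsd2 was called in 0 of 6 fits, Ezh1 and Kmt5c in 1 each and Ezh2 in 2, none of them was called with the line number as a block, and the lower calls were lost with library size alone. Ezh1 and Ezh2 are the H3K27 enzymes of Polycomb complexes, Nsd2 acts on H3K36 and Kmt5c on H4K20.

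**Figure D4:**
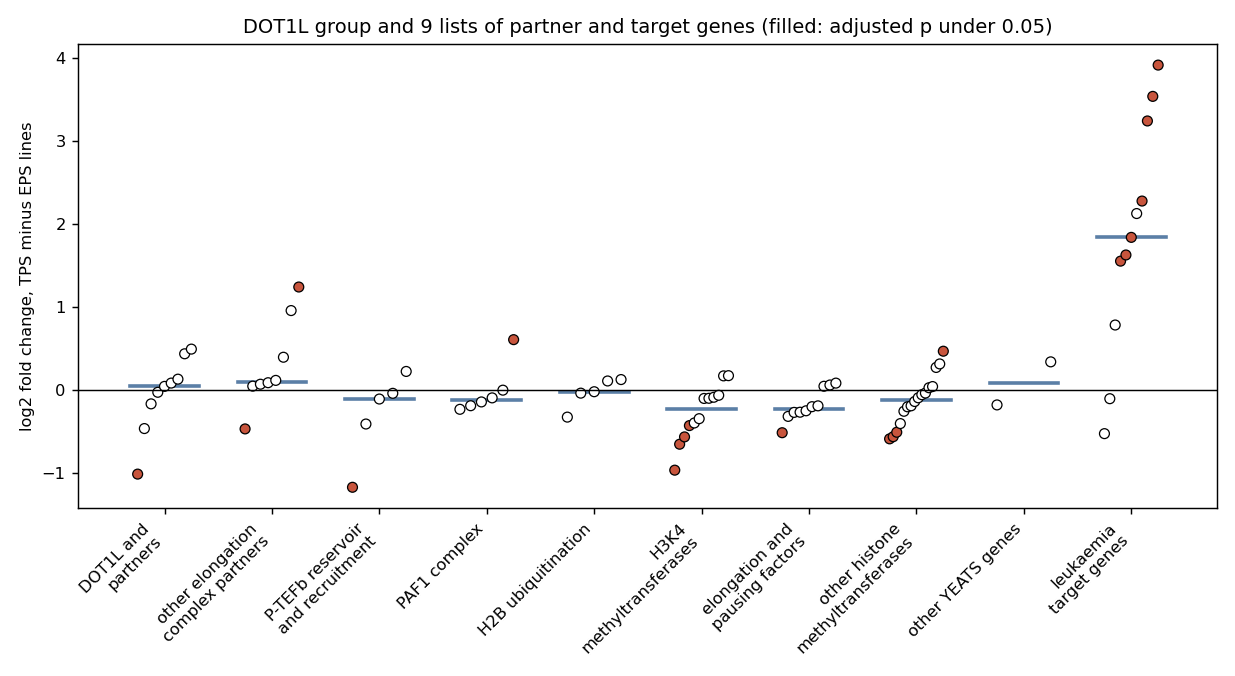
Log2 fold change, TPS minus EPS lines (vertical axis), of each tested gene among the 10 genes and in 9 lists of partner and target genes. Filled points have an adjusted p under 0.05 and blue bars are list medians, which lie between -0.23 and 0.10 except in the list of leukaemia target genes at 1.84, where 5 of 11 genes passed the count filter only with the help of the TPS lines.

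Among genes known from leukaemia to depend on MLL fusions and DOT1L, 4 Hoxa genes, Meis1 and Runx2 were higher in TPS lines, most of them at low levels. Of 12 genes 11 were tested, 7 were higher and 0 lower in edgeR, and the median log2 fold change was 1.84. The values over all 11 genes are a description and are not set against the share called in the whole table. A gene was tested when at least 3 lines passed a minimum count near 10, and 5 of the 11 genes could pass only with the help of the TPS lines: 0 EPS lines passed for Hoxa5 and Hoxa9, 1 for Hoxa10, and 2 for Hoxa7 and Mef2c. Genes so selected could hardly be called in any other direction than higher, and 4 of the 7 calls came from them. Of the 6 genes that all 3 EPS lines passed, 3 were higher and 0 lower, against 14.4% and 7.34% of all tested genes. That count is small and comes from a list chosen with earlier results of these data known. At an unadjusted p under 0.05 there were 9 higher and 1 lower, DESeq2 called 9 and 1, and limma-voom 7 and 0. Hoxa5, with 3, 4 and 9 reads in the EPS lines, stood at 1.27, 2.59 and 3.50 CPM in TPS lines and at 0.0979, 0.118 and 0.256 CPM in EPS lines (log2 fold change 3.92, SE 0.591, adjusted p = 0.00576). Hoxa9, a homeobox gene central to MLL leukaemia, stood at 0.325, 2.51 and 1.18 CPM in TPS lines and at 0.0326, 0.147 and 0.228 CPM in EPS lines (3.24, SE 0.883, adjusted p = 0.0372). Those levels were 13, 97 and 37 reads against 1, 5 and 8 reads, so the EPS side was close to the limit of detection, the size of the fold is poorly fixed and the p is no independent test of a direction that the filter favoured. With a filter of CPM of at least 1 in 3 lines Hoxa9 was not tested, since TPS line 1 and every EPS line lay under 1 CPM. It was called in 7 of 17 alternatives, and the rest include that fit without a test of it. Meis1, a cofactor of Hoxa9 that passed the filter in all 3 EPS lines, stood at 2.95, 6.35 and 2.89 CPM against 0.914, 1.09 and 1.39 CPM (1.84, SE 0.430, adjusted p = 0.0226). Hoxa7 (2.28), Hoxa10 (3.54, on 1, 2 and 11 reads in EPS lines) and Runx2 (1.55) were also higher. For the 4 Hoxa genes, Meis1 and Runx2 the lines did not overlap, but each was named because it was called, so that is no separate result. The levels of the 4 Hoxa genes stayed at or under 3.56 CPM in every line.

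Cdk6 and Jmjd1c, which had the highest CPM values of this list, gave fold changes below 0. Cdk6, a cell cycle kinase, stood at 40.1, 39.6 and 46.5 CPM in TPS lines and at 53.6, 56.9 and 71.6 CPM in EPS lines (-0.53, SE 0.159, edgeR adjusted p = 0.0504), and Jmjd1c overlapped between groups (-0.11). Pbx3 (0.78, adjusted p = 0.0983) and Mef2c (2.13, adjusted p = 0.0681) did not pass, and Flt3, under 0.29 CPM in every line, was not tested. The count of 7 rested on all lines. It was 2 without EPS line 1 or without EPS line 2, 3 without TPS line 2 or TPS line 3, 5 without TPS line 1 or EPS line 3, and 4 in technical replicate 2 alone. Of the 6 fits that leave out a line, Runx2 was called in 2 and Meis1 in 3. Such counts are not given for the 4 Hoxa genes, whose direction the filter favoured. The fibroblast markers moved in the same direction, with 12 of 16 above in every TPS line and a median log2 fold change of 2.07, and their part in the higher Hoxa, Meis1 and Runx2 levels was not tested.

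**Figure D5:**
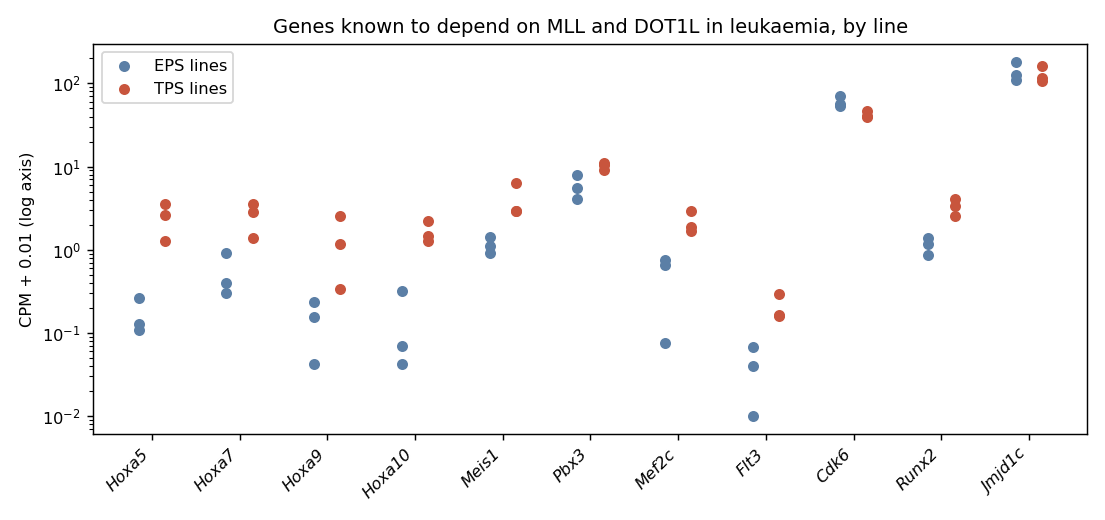
Level of 11 genes known to depend on MLL and DOT1L in leukaemia, as CPM plus 0.01 on a log axis, in the 3 EPS lines (blue) and 3 TPS lines (red). The Hoxa genes lie at or under 3.56 CPM and are higher in every TPS line than in any EPS line, while Cdk6 is lower in every TPS line.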

How the data were processed

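The authors trimmed and mapped paired-end reads (fastp 0.19.7 and STAR 2.7.3a per the submitters' processing notes, to mouse build GRCm38.p6, mm10) and deposited raw counts per gene for each of the 12 libraries. The counting tool, its annotation release and its use of strand are not given in the sources used here. Libraries were grouped by their labels, and counts of the 2 technical replicates were summed per line. Of 55401 identifiers, 55141 matched GENCODE M21.

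TPS and EPS lines (3 against 3) were compared with edgeR 4.0.16 in R 4.3.3 by the quasi-likelihood test, with TMM factors and filterByExpr (a minimum count near 10 in 3 lines and a total of 15), over 17468 genes, with Benjamini-Hochberg adjustment. The standard error is the log2 fold change divided by the square root of F. The test was checked on simulated data with known changes, where it called 87.6% of 4-fold changes and 11.1% of 2-fold changes. The simulation gave every gene the same spread between lines (edgeR's common dispersion, 0.106). Its percentages are therefore no measure of power for genes whose spread differs. A gene that did not pass may still differ. Near-identical copies were sought with blastn 2.17.0, at 95% identity over 50% of a transcript. Counts carry no molecular identifiers. Exact permutation tests used scipy 1.17.1.

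Named genes were the 10 genes, the genes of the lists, and the 3 genes most correlated with Dot1l and with Aff1. The values of 3 genes that this rule names are not reported here. These genes and lists were chosen with earlier results of these data known. DESeq2 1.42.0, limma-voom (limma 3.58.1), other scalings and filters, the 12 libraries as separate samples, technical replicates alone, a block on line number and leaving out each line were the alternatives.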

Additional observations from a re-analysis of the deposited data

How the results depend on the processing

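Aff1 kept its call in every alternative. Library size alone shifted the median of all tested genes by 0.14 and raised Mllt1 to 0.58, called. The 12 libraries taken as separate samples, which treats technical replicates as lines, called Mllt1 (0.44) and Mllt3 (0.51) higher and Mllt10 (-0.44) lower, and DESeq2 called Mllt10 lower (-0.47). The number of the 10 genes called higher was therefore 1 with library size alone and 2 with 12 libraries, and the number called lower was 2 with DESeq2 and with 12 libraries. Leaving out each line gave 1 to 2 called lower, with Mllt10 from -0.60 to -0.38.

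Genes near 0 changed sign. Mllt6 was -0.035 with limma-voom and -0.084 in technical replicate 1 alone, Ell2 was 0.014 with upper quartile factors and 0.11 with library size alone, and Kmt2a was -0.024 in technical replicate 1 alone. Leaving out each line gave -0.33 to 0.25 for Mllt6, -0.060 to 0.22 for Aff4, -0.30 to 0.13 for Ell2, -0.16 to 0.19 for Kmt2a, and log2 ratios of -0.21 to 0.10 for Mllt1 to Mllt3 and -0.30 to 0.17 for Ell2 to Ell. By the longest transcript Dot1l ranked 3 in TPS lines.

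Over all genes, 12 libraries gave 4067 higher and 3610 lower, library size alone 745 lower (80% of calls higher, against 66.2%), DESeq2 3118 higher and 1914 lower, and leaving out each line 1617 to 2234 higher and 493 to 1047 lower. In the 9 lists together (10 higher, 7 of them leukaemia target genes, and 10 lower), 6 were higher in technical replicate 2 alone and 2 to 7 with a line left out. The number lower was 5 with upper quartile factors, 3 with library size alone, 6 with a CPM of at least 1 in 3 lines, 21 with 12 libraries, 3 in technical replicate 1 alone and 2 to 6 with a line left out.

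The line numbers did not pair the groups, since deviations of same-numbered lines had correlations of 0.02, -0.12 and 0.04. With line number as a replicate block, Aff1 was -1.02 (edgeR adjusted p = 0.0213), Mllt6 -0.027, 721 genes were lower and 1714 higher over all genes, and 2 of the 9 lists' genes were lower. The causes of these shifts were not tested. With 3 lines per group, changes of Dot1l within its interval of -0.54 to 0.20 could not be told from 0, and Ell3 was below what this depth can compare.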
